A study of Mus musculus with 4 samples.

Results

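The genes described here, labelled zinc finger transcription factor genes, were taken by symbol from 2 tables of RNA polymerase II (Pol II) phosphorylation. A gene was kept when its symbol was ZFP, ZBTB, ZKSCAN, ZSCAN or ZNF followed by a digit, and Zfp36 and its relatives were dropped. The rule found 76 genes, each in both tables, of 3112 genes listed at transcription start sites (TSS) and 3030 listed at transcription end sites (TES). They comprised 64 ZFP genes, 9 ZBTB genes and 3 genes of the ZKSCAN and ZSCAN families (Zkscan1, Zkscan5 and Zscan29), and 0 carried a ZNF symbol. The study applied mNET-seq, which sequences the nascent RNA protected inside immunoprecipitated Pol II, to B16F10, an established mouse melanoma line. Control cells were the wild-type line, and Carm1 KO cells lacked the arginine methyltransferase Carm1. The label gives no clone, guide or exon for the knockout, no treatment is given for either group, and sets of cells were pooled into 1 library per condition and antibody. The values are Ser2P ratios: the signal of Pol II phosphorylated on serine 2 of its carboxy-terminal domain over a divisor that no label or header names.

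C2H2 zinc fingers are small folds held by a zinc ion, and arrays of them read DNA sequence. Many mouse ZFP genes encode a KRAB domain, which recruits the corepressor Trim28 and, through it, heterochromatin factors to repeats and imprinted regions. ZBTB proteins carry a BTB domain that pairs them and binds corepressors of the NCoR and BCoR type, and ZKSCAN and ZSCAN proteins carry a SCAN domain for pairing. Serine 2 phosphorylation of Pol II builds up along a gene and is highest towards its end.

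The promoters of 4 genes are shown because these genes span the changes at the start site: Zbtb37, Zbtb2 and Zfp28 had the largest increases of their families, and Zfp959 was among the 2 genes lower by at least 1.5-fold. Sequences are from RefSeq on GRCm38.p6, 250 bases before to 50 bases after the annotated start, 5′ to 3′ on the gene's strand. Capitals mark the GC box GGGCGG, the CCAAT box and the ETS core CCGGAA on either strand. Zbtb37 lies at chr1:161034800-161035099 (minus strand), Zbtb2 at chr10:4388059-4388358 (minus), Zfp28 at chr7:6383068-6383367 (plus) and Zfp959 at chr17:55891843-55892142 (plus).
Zbtb37: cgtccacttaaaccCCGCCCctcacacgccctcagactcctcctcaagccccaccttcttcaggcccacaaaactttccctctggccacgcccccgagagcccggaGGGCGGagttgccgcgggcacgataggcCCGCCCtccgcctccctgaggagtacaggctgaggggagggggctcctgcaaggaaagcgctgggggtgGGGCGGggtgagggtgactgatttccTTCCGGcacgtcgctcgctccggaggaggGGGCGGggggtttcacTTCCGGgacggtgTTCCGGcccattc
Zbtb2: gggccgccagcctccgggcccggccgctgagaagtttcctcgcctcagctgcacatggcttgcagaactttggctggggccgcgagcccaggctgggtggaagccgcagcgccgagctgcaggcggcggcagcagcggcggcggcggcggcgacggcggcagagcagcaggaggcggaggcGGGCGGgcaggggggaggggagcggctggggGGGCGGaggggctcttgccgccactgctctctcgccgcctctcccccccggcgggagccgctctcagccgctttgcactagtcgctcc
Zfp28: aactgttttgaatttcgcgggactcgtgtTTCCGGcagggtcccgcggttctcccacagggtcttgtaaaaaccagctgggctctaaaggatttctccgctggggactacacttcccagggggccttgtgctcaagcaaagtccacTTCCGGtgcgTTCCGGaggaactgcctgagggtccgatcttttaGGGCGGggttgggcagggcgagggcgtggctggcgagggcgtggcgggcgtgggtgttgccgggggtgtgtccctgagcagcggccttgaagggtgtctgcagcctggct
Zfp959: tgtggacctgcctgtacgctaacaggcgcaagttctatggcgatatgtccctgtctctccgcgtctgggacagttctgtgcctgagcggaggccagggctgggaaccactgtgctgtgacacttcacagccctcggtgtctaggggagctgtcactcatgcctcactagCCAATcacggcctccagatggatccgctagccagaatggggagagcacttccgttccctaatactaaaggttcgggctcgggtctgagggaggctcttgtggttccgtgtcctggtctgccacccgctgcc
The Zbtb37 promoter held 5 GC boxes and 3 ETS cores, and that of Zbtb2 held 2 GC boxes. The Zfp28 promoter held 1 GC box and 3 ETS cores. The Zfp959 promoter held 1 CCAAT box and neither of the other motifs.

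Among the 62 zinc finger genes with a RefSeq promoter within 500 bp of the annotated start, the ZBTB promoters were richer in GC than the ZFP promoters. The median GC content was 71.7% over 8 ZBTB promoters, 58.3% over 52 ZFP promoters and 61.7% over 2287 promoters of all listed genes. ZBTB promoters held a median of 33 CpG dinucleotides and ZFP promoters 17, against 24 over all genes. A GC box, the sequence read by SP and KLF factors, was found in 7 of 8 ZBTB promoters (87.5%) and 24 of 52 ZFP promoters (46.2%), against 69.7% of all promoters. The CCAAT box was found in 31 of the 62 zinc finger promoters and in 41.7% of all, and the ETS core in 38.7% and 39.7%. The core of the element bound by Zfp143, ACTACAA, was found in 3.23% of zinc finger promoters and 4.37% of all. These are matches to letters within 300 bases, on both strands, and not measured sites.

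The label of the genes was checked on their coding sequences. Of the 76 genes, 70 encoded at least 2 C2H2 motifs, 5 encoded 1 and Zfp330 encoded 0. The median was 9 motifs, at 10 for ZFP, 4 for ZBTB and 6 for the ZKSCAN and ZSCAN genes, and Zfp142 had the most with 37. In 51 of the 76 genes every motif lay in the last exon. The linker that joins neighbouring fingers in Krüppel-type arrays was present in 47 of 64 ZFP genes and in 1 of 9 ZBTB genes, Zbtb11. The symbol rule also took in genes that the label may not describe, such as Zfp330 and others of 8 genes with roles outside DNA binding.

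With 1 library per group there is no replicate spread, so no difference below was tested and each count describes these libraries. A change is log2(Carm1 KO / control) of the ratio, and higher or lower means by at least 1.5-fold. Most listed genes had a higher ratio in Carm1 KO cells, with a median change of 1.17 at the TSS and 0.85 at the TES. The scale between the libraries is not given, so counts with these medians subtracted stand beside the others. Depth is unknown, and many genes share exactly the same value, which applied to 51 of the 76 zinc finger genes at the start and 28 at the end in at least 1 condition. Many ZFP genes have close paralogs, and how reads that match several genes were counted is not given, nor is the strand setting, so values of clustered ZFP genes and of genes that overlap others are uncertain. Of 10 melanocyte genes that would check the labelled line, 6 were listed at the TSS and 4 at the TES, and Carm1 itself was not analysed here.

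In control cells the zinc finger genes had a low ratio at the start and a high one at the end, as the tables did in general. The median ratio at the TSS was 0.0854 over the 76 genes, against 0.0809 over all genes, and at the TES it was 1.83 against 1.71. ZBTB genes stood higher than ZFP genes in control cells at both ends, with TSS medians of 0.206 and 0.0854 and TES medians of 2.44 and 1.82. The 3 ZKSCAN and ZSCAN genes had medians of 0.0565 and 1.63. In Carm1 KO cells the TSS median was 1.34 for ZBTB, 0.149 for ZFP and 0.142 for ZKSCAN and ZSCAN genes, and the TES medians were 2.95, 3.28 and 3.81. The ZBTB median therefore moved from above to below the ZFP median at the end of the gene and further above it at the start. Both ZBTB medians at the TSS are coarse, since 8 listed genes shared the control value and 6 the Carm1 KO value. In at least 1 condition, 7 of the 9 ZBTB genes had a shared TSS value.

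**Figure D1:**
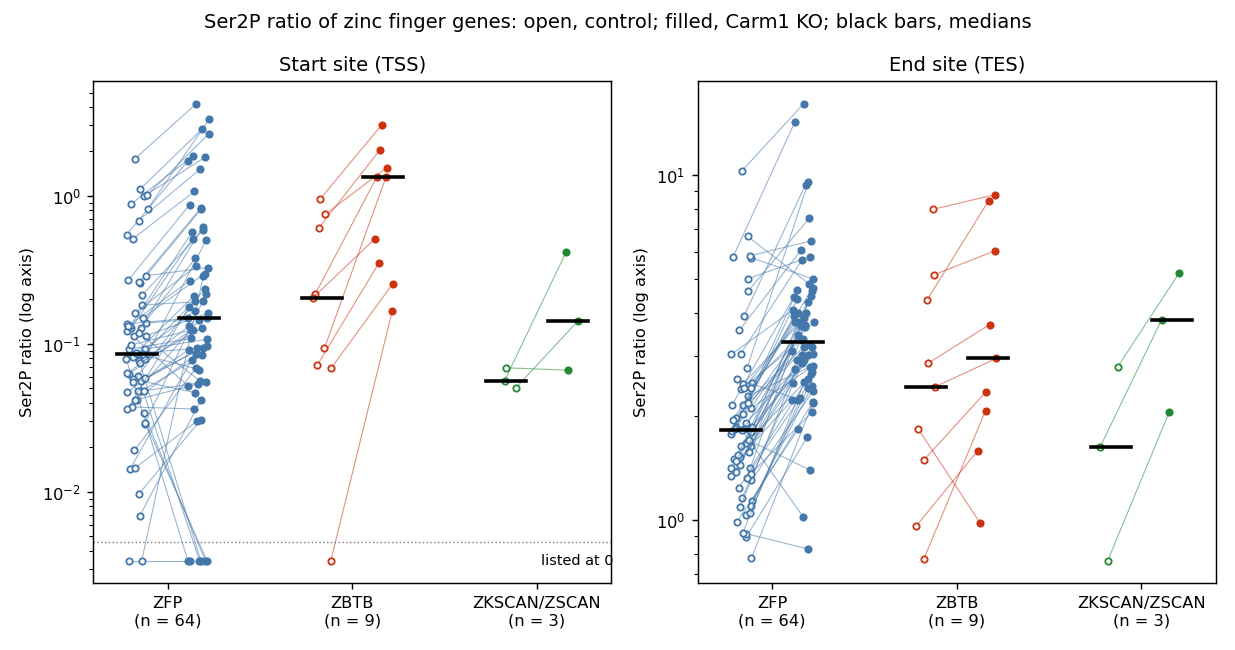
Ser2P ratio (log axis, no unit) of each zinc finger gene at the TSS (left) and TES (right), open circles for control and filled circles for Carm1 KO, joined by gene; black bars are medians of all listed genes of the family and genes listed at 0 are drawn below the dotted line. The ZBTB median went from 0.206 to 1.34 at the TSS and from 2.44 to 2.95 at the TES, while that of ZFP went from 0.0854 to 0.149 and from 1.82 to 3.28. Both ZBTB medians at the TSS are values shared with other genes and so are coarse.

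At the TSS, 68 of the 76 genes were above 0 in both conditions. Of these, 51 were higher in Carm1 KO cells and 2 were lower, while 71.2% of all 2859 compared genes were higher and 5.6% lower. The median change was 1.11, or 2.16-fold, with quartiles at 0.67 and 1.75, close to the median of all genes. With the median of all genes subtracted, 17 zinc finger genes were higher and 17 lower, against 28.6% and 28.8% of all genes. The families differed in this. Of 57 ZFP genes, 41 were higher and 2 lower with a median change of 1.05, and all 8 compared ZBTB genes were higher with a median of 1.83, or 3.55-fold. After the subtraction 11 ZFP genes were higher and 16 lower, and 5 ZBTB genes were higher and 0 lower. The ZKSCAN and ZSCAN genes had a median of 1.49, with 2 of 3 higher.

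At the TES all 76 genes were compared, and 56 were higher and 2 lower, where 66.7% of all 3016 compared genes were higher and 7.13% lower. The median change was 0.88, or 1.84-fold, with quartiles at 0.58 and 1.22. With the median of all genes subtracted, 6 were higher and 11 lower, against 11.6% and 22.0% of all genes. Here the order of the families was turned. ZFP genes had a median of 0.90 with 49 of 64 higher and 1 lower, while ZBTB genes had a median of 0.37 with 4 of 9 higher and 1 lower, and 7 of the 9 lay below the median of all genes. After the subtraction 0 ZBTB genes were higher and 3 were lower, and 6 ZFP genes were higher and 8 lower. The 3 ZKSCAN and ZSCAN genes were all higher, with a median of 1.23.

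**Figure D2:**
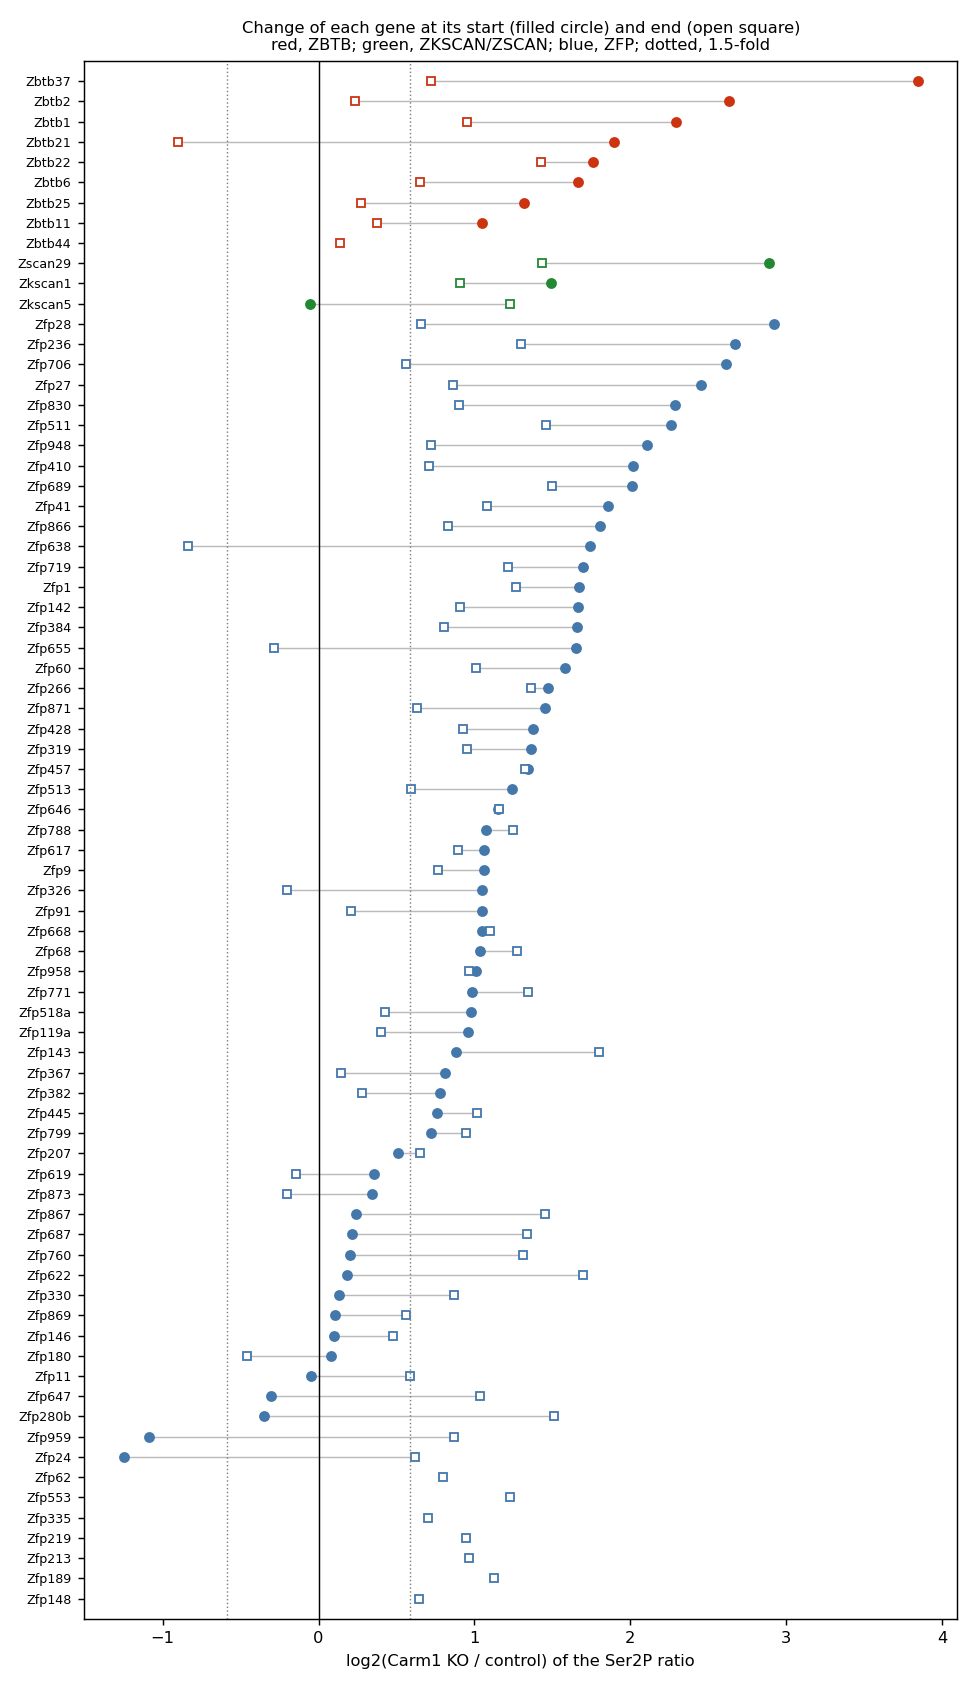
Change of the Ser2P ratio, log2(Carm1 KO / control), of each of the 76 genes at the TSS (filled circles) and TES (open squares), sorted by family and by the TSS change; dotted lines mark 1.5-fold, and genes with no circle were listed at 0 at the TSS in at least 1 condition. In all 8 ZBTB genes with both values the circle lies to the right of the square, and Zfp24 and Zfp959 are the 2 genes whose circle lies left of the lower dotted line.

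Among ZBTB genes, Zbtb37, on chromosome 1, had the largest TSS change of all 76 genes. Its TSS ratio was 0.0935 in control cells and 1.34 in Carm1 KO (log2 change 3.84), and its TES ratio was 0.962 and 1.59 (0.72). Zbtb2, on chromosome 10, followed with TSS ratios of 0.216 and 1.34 (2.63) and TES ratios of 5.14 and 6.04 (0.23). Both had the same Carm1 KO value at the TSS, which 6 genes of the table shared, and 12 genes shared the control value of Zbtb37, so the sizes of these changes are coarse. Both promoters, printed above, hold GC boxes, as do 7 of 8 ZBTB promoters and 69.7% of all promoters.

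Zbtb1 and Zbtb25 lie head to head on chromosome 12 with starts 664 bp apart. Zbtb1, a repressor needed for lymphocyte development, had TSS ratios of 0.0719 and 0.352 in control and Carm1 KO cells (2.29) and TES ratios of 4.36 and 8.45 (0.96). Zbtb25 had TSS ratios of 0.206 and 0.512 (1.32) and TES ratios of 2.44 and 2.95 (0.27). Both genes of the pair were thus higher at the start, and 1 of them was higher at the end. Because the starts are so close and the window width and strand setting are not given, reads of one may have been counted for the other.

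Zbtb21, on chromosome 16, differed in direction between its ends. Its TSS ratio was 0.0685 in control cells and 0.255 in Carm1 KO (1.89), and its TES ratio was 1.84 and 0.983 (-0.90). It had the lowest TES change of the 76 genes. Its annotated end lies within C2cd2, and the ends of Zbtb11, Zbtb22 and Zbtb37 also lie within other genes, as do those of some ZFP genes. The part of genes that overlap an end in the TES values was not tested. Zbtb11, a factor required for neutrophil development, had TSS ratios of 0.752 and 1.56 (1.05) and TES ratios of 2.85 and 3.69 (0.37). Zbtb11 was the single compared ZBTB gene with a TSS change below the median of all genes.

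Zbtb22, a short gene beside Daxx and Tapbp on chromosome 17, had TSS ratios of 0.608 and 2.06 (1.76) and TES ratios of 0.774 and 2.08 (1.43). It was the ZBTB gene with the largest TES change. Zbtb6, on chromosome 2, had TSS ratios of 0.958 and 3.04 (1.66) and TES ratios of 1.498 and 2.35 (0.65). In Carm1 KO cells its ratio was therefore higher at the start than at the end. Zbtb44, on chromosome 9, was listed at 0 at the TSS in control cells and at 0.168 in Carm1 KO cells, a value shared by 28 genes, and had TES ratios of 7.97 and 8.78 (0.14).

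The SCAN-domain genes did not move alike. Zscan29, on chromosome 2, had TSS ratios of 0.0565 in control cells and 0.419 in Carm1 KO (2.89) and TES ratios of 0.764 and 2.06 (1.43). Zkscan1, on chromosome 5, had TSS ratios of 0.0506 and 0.142 (1.49) and TES ratios of 2.79 and 5.22 (0.90). Zkscan5, also on chromosome 5, had TSS ratios of 0.0689 and 0.0664 (-0.05) and TES ratios of 1.63 and 3.81 (1.23). Zscan29 and Zkscan1 were thus higher at both ends and Zkscan5 at the end alone.

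The largest TSS increases among ZFP genes ranged from 2.01 to 2.92. Zfp28 had TSS ratios of 0.0288 in control cells and 0.218 in Carm1 KO (2.92) and a TES change of 0.66. Zfp236, one of the longest genes of the group, had TSS ratios of 0.0791 and 0.503 (2.67) and TES ratios of 5.79 and 14.2 (1.30). Zfp706, a small protein with a single motif, had TSS ratios of 0.00685 and 0.0419 (2.61) and a TES change of 0.56. All 3 control values lay below the ZFP median of 0.0854.

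Zfp27 followed with a TSS change of 2.45 and a TES change of 0.86, and Zfp948 had changes of 2.11 and 0.72. Zfp830, a factor associated with pre-mRNA splicing, had TSS ratios of 0.0363 and 0.177 (2.29) and a TES change of 0.90. Zfp511 had changes of 2.26 at the TSS and 1.46 at the TES. Zfp410, the activator of the NuRD remodeller gene Chd4, had TSS ratios of 0.819 and 3.31 (2.01) and TES ratios of 4.61 and 7.52 (0.71). Zfp410 thus combined one of the larger changes with a control TSS ratio far above the median of its family.

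At the other end of the range, Zfp24 and Zfp959 had a lower TSS ratio in Carm1 KO cells. Zfp24, a regulator of myelination, had TSS ratios of 0.123 in control cells and 0.0516 in Carm1 KO (-1.25), and its TES ratio was 1.67 and 2.57 (0.62). Zfp959 had TSS ratios of 0.119 and 0.0559 (-1.09) and TES ratios of 1.24 and 2.26 (0.87). Both were thus lower at the start and higher at the end, as were 95 of all 2775 genes compared at both ends. Their Carm1 KO values at the TSS were shared by 9 and 15 genes.

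The next 6 ZFP genes from the bottom did not reach 1.5-fold at the TSS. Zfp280b changed by -0.35, Zfp647 by -0.30 and Zfp11 by -0.05, while Zfp180 changed by 0.08 and Zfp146 and Zfp869 by 0.10 each. Of these, Zfp280b (1.51) and Zfp647 (1.04) were higher at the TES, and Zfp11 had a TES change of 0.58, just short of 1.5-fold.

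At the TES the largest increase was that of Zfp143, an activator bound at many promoters, including those of small nuclear RNA genes. Its TES ratio was 2.76 in control cells and 9.59 in Carm1 KO (1.80), and its TSS ratio was 0.993 and 1.83 (0.88). Its annotated start and end both lie within 1600010M07Rik. Zfp280b had TES ratios of 1.57 and 4.48, a change of 1.51 beside a TSS change of -0.35 that did not reach 1.5-fold. Zfp689 followed with 1.498, Zfp867 with 1.46, Zfp266 with 1.36 and Zfp771 with 1.34. Of these 4, Zfp689 (2.01), Zfp266 (1.47) and Zfp771 (0.98) were also higher at the TSS, and Zfp867 (0.24) was not.

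The lowest TES change among ZFP genes was that of Zfp638, described with the proteins of other roles below. Zfp180 had TES ratios of 6.65 in control cells and 4.84 in Carm1 KO (-0.46), and Zfp655 had 1.71 and 1.40 (-0.29) beside a TSS change of 1.65. Zfp873 changed by -0.20, Zfp619 by -0.15 and Zfp367 by 0.14 at the TES. None of these 5 passed 1.5-fold at the end.

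A zero at the TSS left 8 genes without a change there. Besides Zbtb44, Zfp553 was at 0 in control cells alone, with a Carm1 KO value of 0.288. At 0 in Carm1 KO cells alone were Zfp148, a factor that binds GC-rich promoters, at 0.0762 in control cells, Zfp219 at 0.0791, Zfp189 at 0.0611, Zfp213 at 0.0339 and Zfp62 at 0.0294. Zfp335, a protein needed for neural progenitors, was at 0 in both. Over all 3112 genes listed at the TSS, 59 were at 0 in control cells alone, 152 in Carm1 KO cells alone and 42 in both. All 8 zinc finger genes had a value at the TES in both conditions. The TES ratio of Zfp148 was the highest of the 76 genes in both conditions, at 10.3 in control cells and 16.1 in Carm1 KO (0.64), and the TES changes of the other ZFP genes at 0 ranged from 0.70 for Zfp335 to 1.23 for Zfp553.

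A set of 8 ZFP genes encode proteins with known roles outside sequence-specific DNA binding, though such binding was not excluded for each of them. Their TSS median was 1.05 with 5 higher and 0 lower, and their TES median 0.61 with 4 higher and 1 lower. The shares of all genes that were higher were 71.2% at the start and 66.7% at the end. Zfp638, a nuclear protein that silences unintegrated retroviral DNA together with the HUSH complex, had TSS ratios of 0.113 in control cells and 0.379 in Carm1 KO (1.74) and TES ratios of 1.83 and 1.02 (-0.84). Zfp622, a maturation factor of the large ribosomal subunit, showed the reverse balance, with TSS ratios of 0.289 and 0.328 (0.18) and TES ratios of 1.33 and 4.30 (1.70). Zfp326, which joins transcript elongation by Pol II to splicing in the DBIRD complex, changed by 1.05 at the TSS and -0.20 at the TES.

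Zfp91, an atypical ubiquitin ligase of the NF-kB pathway, changed by 1.05 at the TSS and 0.21 at the TES. Zfp207, a spindle and kinetochore protein that binds Bub3, changed by 0.51 and 0.65, and Zfp330, a nucleolar protein, by 0.13 and 0.87. The set also holds Zfp706 and Zfp830, given above. Zfp638 and Zbtb21 were the 2 of 68 zinc finger genes that were higher at the start and lower at the end, against 127 of all 2775 genes.

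The dropped Zfp36 genes encode CCCH proteins that bind AU-rich messenger RNA and speed its decay. Zfp36 had TSS ratios of 0.0791 in control cells and 0.0442 in Carm1 KO (-0.84), and Zfp36l1 (2.59) and Zfp36l2 (0.06) differed from it and from each other. Their TES changes were 0.56, 0.88 and 0.71.

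The change at the start was larger than that at the end in 46 of the 68 genes with both values (67.6%), against 63.4% of all 2775 genes. This held in 36 of 57 ZFP genes, 8 of 8 ZBTB genes and 2 of 3 ZKSCAN and ZSCAN genes. The median excess of the start over the end change was 0.45 for ZFP, 1.19 for ZBTB and 0.40 for all genes. It reached at least 1, a 2-fold excess, in 6 of 8 ZBTB genes and 10 of 57 ZFP genes, against 31.7% of all genes. Both ends were higher by at least 1.5-fold in 38 of the 68 genes (55.9%), where 49.2% of all genes were. Start and end values come from the same libraries, so a factor acting on a whole library moves both.

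**Figure D3:**
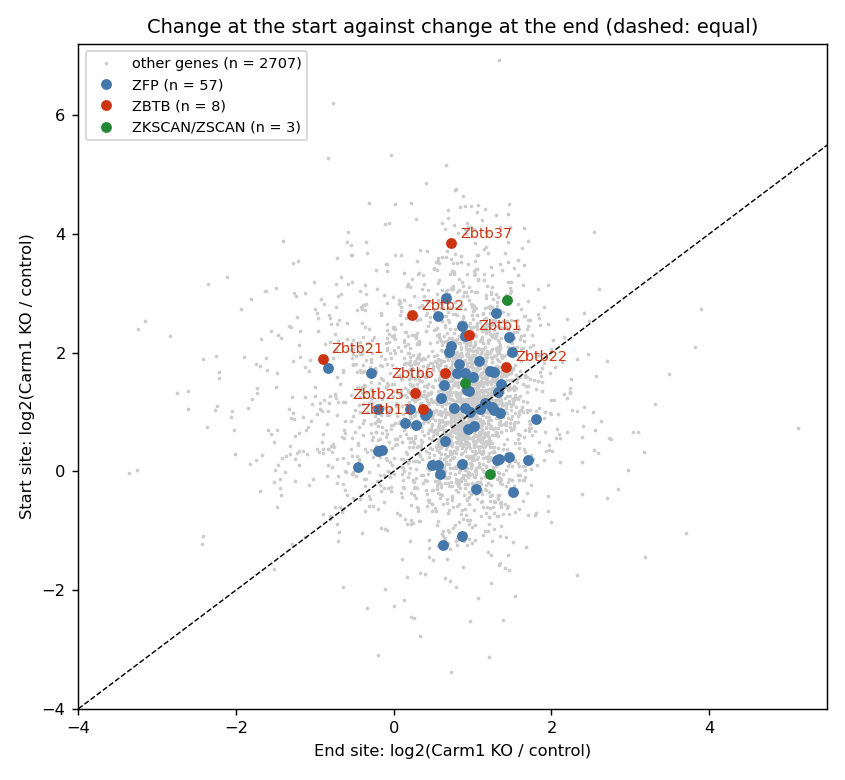
Change of the Ser2P ratio at the TSS (vertical) against that at the TES (horizontal), both log2(Carm1 KO / control), for 57 ZFP, 8 ZBTB and 3 ZKSCAN and ZSCAN genes and all other genes with both values; the dashed line marks equal changes. All 8 ZBTB genes lie above the line, with Zbtb37 highest and Zbtb21 farthest left.

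The ratio of the end value to the start value restates the contrast of start and end changes, since it is built from the same values. For ZBTB genes the median was 11.1 in control cells and 3.11 in Carm1 KO cells, for ZFP genes 18.3 and 18.6, and for all genes 19.5 and 15.7. In Zbtb37 it went from 10.3 to 1.184 and in Zbtb2 from 23.8 to 4.50. In Zfp24 it went the other way, from 13.6 to 49.8. A start value above the end value was seen in 1 zinc finger gene in control cells, Zfp513 (1.78 at the TSS and 1.36 at the TES). In Carm1 KO cells it was seen in 2, Zfp513 (4.20 and 2.06) and Zbtb6. Over all 2775 genes with both values it was seen in 83 in control and 171 in Carm1 KO cells. Zfp513, named after its values were seen, starts within 1 kb of the annotated end of Ppm1g.

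Gene length moved with the change at the TES in the tables as a whole. All genes were split by length into 3 groups of equal number. The median TES change was 0.93 in the short group, up to 10362 bp, 0.99 in the middle group and 0.30 in the long group, from 30146 bp. Zinc finger genes had a median length of 16844 bp against 18137 bp for all genes, and 52 of the 76 fell in the middle group. Their medians were 0.97 for 15 short genes, 0.87 for the 52 and 0.37 for 9 long genes, so the long genes were lowest here too. Within the middle group, 5 ZBTB genes had a median of 0.27 and 44 ZFP genes one of 0.87. The lower ZBTB values at the TES were thus also seen within this group, on few genes. The group spans 10373 to 30083 bp, so lengths within it were not matched, and the part of length was not tested.

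**Figure D4:**
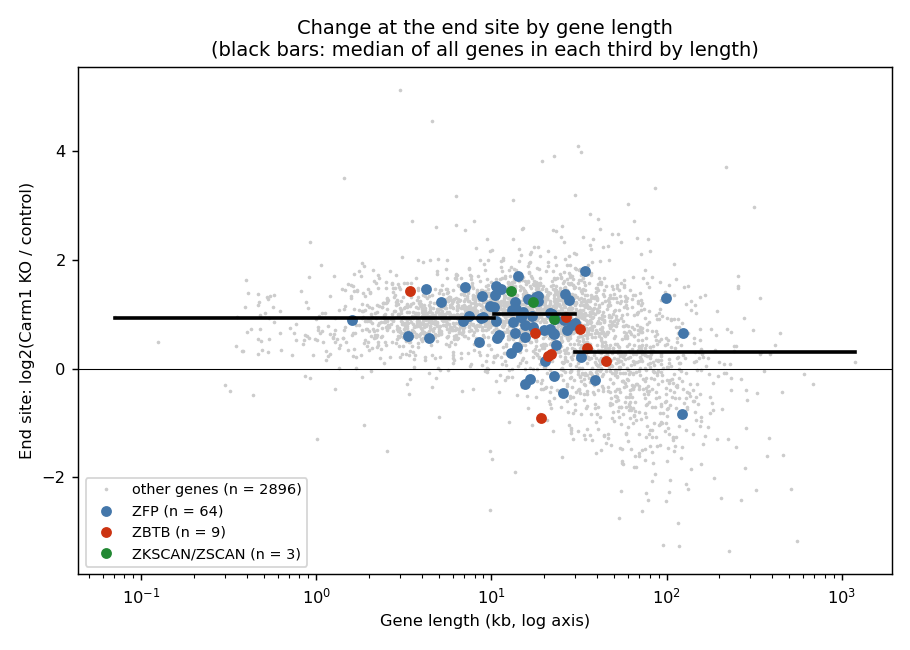
Change of the Ser2P ratio at the TES, log2(Carm1 KO / control), against annotated gene length (log axis, kb); black bars are the median of all genes in each of 3 equal groups by length, at 0.93, 0.99 and 0.30. Most ZFP genes sit in the middle group, and its 5 ZBTB genes lie below the bar, with Zbtb21 lowest at -0.90.

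Neighbouring genes moved with the change at the TSS among the zinc finger genes. Another annotated gene overlapped the start, or started on the other strand or ended within 1 kb of it, in 34 of the 76 genes, against 49.7% of all genes matched to the annotation. The 27 compared genes of this kind had a median TSS change of 1.47 with 25 higher and 0 lower, and the 41 compared genes with a clear start had a median of 0.98 with 26 higher and 2 lower. Over all listed genes the medians were 1.17 in both classes, with 72.0% and 70.7% higher. A control TSS ratio above 0.5 was found in 10 of the 34 genes and 2 of the 42 others, and over all genes in 223 of 1525 with a neighbour and 120 of 1541 without. Of the ZBTB genes, 7 of 9 had such a neighbour, against 26 of 64 ZFP genes. The start of Zbtb37 lies within Gas5, a host gene of small nucleolar RNAs, and beside the start of Gas5 on the other strand. That of Zbtb6 lies beside Rabgap1, and that of Zbtb11 within Zbtb11os1. Zbtb2 and Zbtb21 had clear starts, and their TSS changes of 2.63 and 1.89 were above the median of all genes. The part of neighbouring genes in the ZBTB values was not tested for any of these genes.

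**Figure D5:**
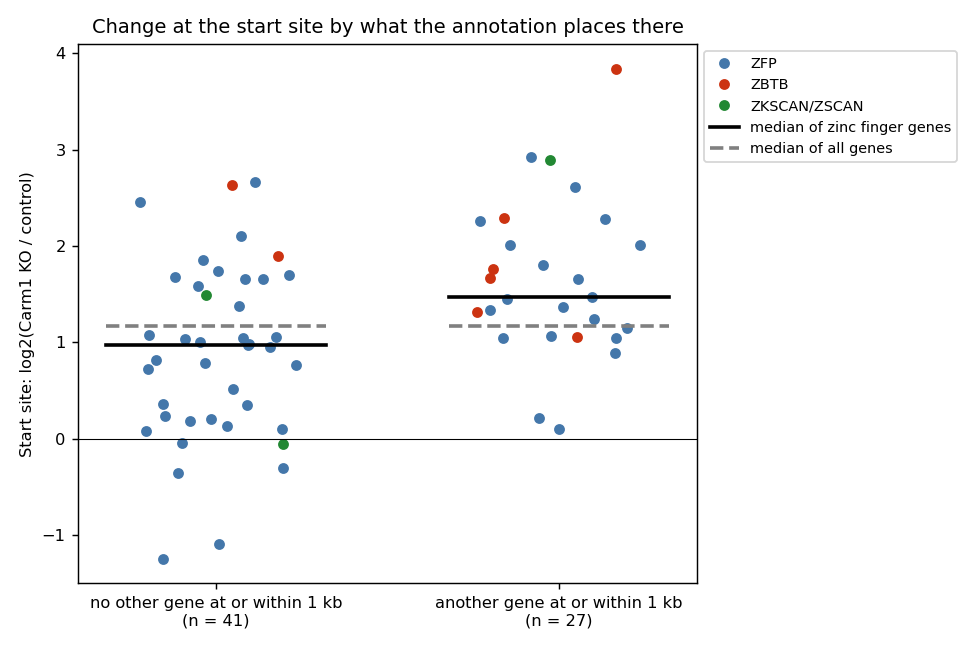
Change of the Ser2P ratio at the TSS, log2(Carm1 KO / control), of zinc finger genes without (left, n = 41) and with (right, n = 27) another annotated gene at or within 1 kb of the start; black lines are their medians, 0.98 and 1.47, and dashed grey lines those of all genes, 1.17 in both classes. The 2 genes lower by at least 1.5-fold, Zfp24 and Zfp959, have clear starts.

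The size of the finger array moved with the changes as well. The 46 genes with 8 or more C2H2 motifs had a median TES change of 0.95 with 37 higher and 0 lower, and the 30 with fewer had 0.68 with 19 higher and 2 lower. Over all genes the TES median was 0.85, with 66.7% higher and 7.13% lower. At the TSS the medians were 1.05 and 1.65. Since 8 of the 9 ZBTB genes have under 8 motifs, the ZFP genes were also taken alone: 44 with 8 or more motifs had a TES median of 0.95 and 20 with fewer had 0.68, while the TSS medians were 1.06 and 1.05. The TSS difference by array size was thus not seen within the ZFP genes.

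Zinc finger genes were gathered on a few chromosomes. Chromosome 7 held 17 of the 76 (22.4%) and 7.21% of all listed genes, chromosome 17 held 8, and chromosomes 5 and 8 held 7 each. Of 8 pairs of neighbouring zinc finger genes within 100 kb, some moved together and some did not. Zfp668 and Zfp646, which overlap on chromosome 7 with starts 607 bp apart, had TSS changes of 1.05 and 1.15 and TES changes of 1.10 and 1.16. Zfp119a and Zfp959, with starts 13163 bp apart on chromosome 17, changed by 0.96 and -1.09 at the TSS. Zkscan5 and Zfp655 on chromosome 5 had TSS changes of -0.05 and 1.65 and TES changes of 1.23 and -0.29. These pairs were named after their values were seen.

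The proteins that zinc finger factors work through were described from lists of their genes. Of 31 genes of KRAB corepression and heterochromatin, 12 were listed, and Trim28 and Setdb1 were not analysed here. At the TSS their median change was 0.73 with 6 higher and 0 lower, where 71.2% of all genes were higher and 5.6% lower. The highest were Resf1, a partner of the methyltransferase Setdb1 (3.51), Cbx3, a heterochromatin protein of the HP1 family (3.06), and the remodeller Smarcad1 (1.68). At the TES the median was 0.30 with 6 higher and 4 lower, where 66.7% of all genes were higher and 7.13% lower. Among all genes of the long group, from 30146 bp, the TES median was also 0.30, with 39.0% higher and 179 of 991 lower. The list was not split by length, and the part of gene length in its TES values was not tested. The lower genes were Fam208b, a paralog of a HUSH subunit (9.63 in control cells and 3.75 in Carm1 KO, -1.36), the HUSH subunit gene Pphln1 (12.3 and 6.22, -0.98), Trim24 (4.90 and 2.77, -0.83) and Atf7ip, a Setdb1 cofactor (3.20 and 2.02, -0.66). Among the higher genes at the TES were Uhrf1, a reader of hemimethylated DNA (1.25), and Cbx5, another HP1 protein (0.94).

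Fewer genes of the other corepressors were listed. Of 17 genes of BTB and NCoR or BCoR corepression, 3 were listed and all 3 were higher at the TSS, as were 71.2% of all genes: Ncor1 by 1.68, Gps2, a subunit of the NCoR complex, by 1.41, and Cul3, the ubiquitin ligase scaffold that BTB proteins bind, by 0.81. At the TES Gps2 was higher (1.55), and Cul3 (-0.24) and Ncor1 (-0.39) did not reach 1.5-fold. Of 14 NuRD genes, 4 were listed. Mbd3 and Mta2 were higher at both ends (TSS changes of 1.39 and 1.34, TES changes of 1.39 and 1.38), as were 49.2% of all genes. Gatad2a changed by 0.36 and -0.29 and Rbbp4 by -0.05 and -0.51.

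Other transcription factor genes give the setting of these values. Of 102 C2H2 factor genes outside the symbol rule, such as those of the KLF and SP families, 17 were listed. Their median change was 0.95 at the TSS, with 9 higher and 3 lower of 15 compared, and 0.72 at the TES, with 11 higher and 1 lower. Of 218 genes of other DNA-binding factors, 59 were listed at the TSS with a median of 1.43, and 39 were higher and 4 lower of 53 compared. At the TES 57 were compared, with a median of 0.67, and 32 were higher and 2 lower. Over all genes the medians were 1.17 at the TSS, with 71.2% higher and 5.6% lower, and 0.85 at the TES, with 66.7% higher and 7.13% lower. The ZFP median of 1.05 at the TSS lay between these 2 lists. The ZFP median of 0.90 at the TES lay above both lists and close to that of all genes.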

How the data were processed

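Nascent RNA was measured by mNET-seq in 4 pooled libraries, 1 for each antibody (Ser2P, Pol II) in each of the control and Carm1 KO lines. Values were used as deposited: the authors' 2 tables give a linear ratio per gene, called a Ser2 fraction per the file headers, for control and for Carm1 KO cells. The third value column is their difference, which equalled Carm1 KO minus control within 1e-09 in 3112 and 3030 rows and was not used. Sources used here do not state the divisor, scaling, windows or strand setting. The submitters' processing notes name cutadapt 1.18 and TopHat2 2.1.1, with mm10 and GRCm38 as builds. Columns of other samples numbered 0.

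Changes were log2(Carm1 KO / control) with no pseudocount, and genes at 0 were given no fold. With 1 library per group no test was run. Depth is unknown, so no interval is given. Symbols were looked up in GENCODE M21, ignoring case (3066 of 3112 TSS genes, 2985 of 3030 TES genes, 76 of 76 zinc finger genes). C2H2 motifs were counted, overlaps allowed, in the translated longest coding sequence. Promoters came from RefSeq. Python 3.11.15, pandas 2.3.3, NumPy 2.4.6, Biopython 1.88 and Matplotlib 3.10.9 were used, and the counting was tested on simulated data.

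Named genes were every ZBTB, ZKSCAN and ZSCAN gene, the 8 ZFP genes at either extreme of the change at each end, ZFP genes past 1.5-fold in opposite directions at the ends, genes at 0, genes with roles outside DNA binding, corepressor genes lower by 1.5-fold or among the 3 highest of their list, and the dropped Zfp36 genes. A gene that this rule names is not reported here. The genes and lists were chosen with earlier results of these data known. Alternatives covered the fold, centring, a pseudocount, low and shared values, the overlap of the tables, motif number and neighbouring genes.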

Additional observations from a re-analysis of the deposited data

How the results depend on the processing

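No paired analysis was possible because each group had 1 library. Subtracting the median of all genes left 17 zinc finger genes higher and 17 lower at the TSS and 6 higher and 11 lower at the TES. The median change then became -0.0542 for all zinc finger genes, -0.12 for ZFP, 0.66 for ZBTB and 0.32 for ZKSCAN and ZSCAN genes at the start, and at the end 0.0333, 0.0478, -0.48 and 0.38. These shifts follow from the subtraction itself. A 2-fold threshold left 27 higher and 0 lower at the TES. A pseudocount of 0.01 at the TSS, which takes in the genes at 0, gave 7 lower genes and medians of 0.95 for ZFP and 1.33 for ZKSCAN and ZSCAN genes. Leaving out low values gave TSS medians of 1.35 for all zinc finger genes and 2.19 for ZKSCAN and ZSCAN genes, and at the TES 0 lower genes and 1.07 for ZKSCAN and ZSCAN genes.

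Leaving out genes whose value another gene shared left 23 zinc finger genes at the TSS, with 16 higher and 0 lower and medians of 1.15 for ZFP and 1.36 for 2 ZBTB genes. No ZKSCAN or ZSCAN gene was left there. At the TES it left 48, with 37 higher. Medians there were 0.69 for 6 ZBTB genes, 0.88 for 40 ZFP genes and 1.07 for ZKSCAN and ZSCAN genes. The ZBTB and ZFP medians thus kept their order but lay much closer together than before shared values were left out. Before that step they were 1.83 and 1.05 for the start of the gene, and 0.37 and 0.90 for its end. The contrast of these families therefore rests largely on genes with shared values. Genes compared in both tables gave a ZBTB median of 0.51 at the TES. Among genes with no other gene within 1 kb of the start, an alternative added after seeing the data, 26 were higher at the TSS, with medians of 0.98 for all, 2.26 for 2 ZBTB genes and 0.72 for 2 ZKSCAN and ZSCAN genes. At the TES 28 of these were higher, and the medians were -0.33 for the 2 ZBTB genes, Zbtb2 and Zbtb21, and 1.07 for ZKSCAN and ZSCAN genes. The cause of these shifts was not tested, beyond the smaller number of genes. The alternative on RefSeq proteins was not run, and one on translated coding sequences with at least 2 motifs, added after seeing the data, took its place. Over these alternatives 51 values stayed within 0.1 of a median or 1.5 times a count, 32 moved further and 4 changed sign. Depth is unknown, and 51 of the 76 genes shared a value at the TSS and 28 at the TES.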
